A study of Mus musculus with 40 samples.

Results

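A set of 10 genes that mark the neuroectoderm, the embryonic layer that gives rise to the nervous system, was followed in mouse embryonic stem cells (mESCs) that lacked Cyclin C or its kinase CDK8. They are the transcription factor genes *Sox1*, *Sox3*, *Sox11*, *Pax6*, *Zic2*, *Zic5* and *Gbx2* and the marker genes *Nes*, *Ncam1* and *Tubb3*. These 10 of the 55536 genes of the count tables were chosen by name, with earlier results of these data known. RNA was sequenced from cells of 3 genotypes exposed for 4 h either to DMSO or to the ATR kinase inhibitor AZD6738 at 900 nM (ATRi). WT cells were represented by 2 biological replicates. Cells without *Ccnc* came as 3 clones named D1, G2 and H5, and those without *Cdk8* as 3 clones named B9, C8 and H4. Each clone or replicate gave 1 DMSO and 1 ATRi library. WT and *Ccnc* KO libraries were sequenced in one multiplex, and the same WT libraries were sequenced again with the *Cdk8* KO libraries in a separate multiplex. All cells were mESCs grown in medium with serum and LIF, and no other allele is given in the labels. The knockouts were made by CRISPR in Cas9-expressing cells and each clone was expanded from a single cell, so that the DMSO and ATRi libraries of a clone are not independent of each other.

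The early neural plate is laid down by transcription factors of the SOX, PAX, ZIC and homeobox families. SOX1 and SOX3, close relatives of SOX2, maintain neural progenitors, and *Sox1* is among the first genes to mark cells that leave pluripotency for a neural fate. Several of these genes are also transcribed at low or moderate levels in mESCs, which can enter the neural path readily. Cyclin C and CDK8 belong to the kinase module of Mediator, the complex that connects transcription factors with RNA polymerase II.

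Library totals lay between 30899823 and 67274049 counts, with a median of 41972557, and a gene of the set had between 141 and 8370 counts in a library. *Ccnc* was at 4.24 to 7.40 CPM (counts scaled to library size) in the *Ccnc* KO libraries and at 43.6 to 45.1 CPM in the WT libraries tested. *Cdk8* was at 52.3 to 64.6 CPM in the *Cdk8* KO libraries and at 71.2 to 78.6 CPM in the WT libraries tested. WT replicate 2 under ATRi, not tested, was at 57.7 CPM and thus within the knockout range. The transcript was still present where the gene is labelled as knocked out. The paper reports that its knockout clones were checked by western blot and by genotyping. All 10 ESC markers of a list, among them *Pou5f1*, *Nanog* and *Zfp42*, were detected in every group, with a summed level of 4012 to 4233 CPM in WT and 3388 to 3775 CPM in *Ccnc* KO cells, and of 3921 to 4156 CPM in WT and 2765 to 3671 CPM in *Cdk8* KO cells. WT replicate 2 under ATRi was left out of the tests, so that 1 WT library under ATRi remained and its spread was taken from the other groups. When the same WT libraries were sequenced again, the level of a gene of the set was 0.901 to 1.23 times its first value over 40 pairs.

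In WT cells the set spanned a wide range of levels. Per kilobase of exon, *Gbx2*, a homeobox gene of the midbrain and hindbrain boundary, was highest at 78.5 CPM per kb ± 0.517 (SD, n = 2 WT replicates under DMSO, each the mean of its runs in both multiplexes). *Tubb3*, which encodes the neuronal β-tubulin, followed at 50.8 ± 1.57 and *Zic2* at 5.78 ± 0.181 CPM per kb. *Nes*, at 3.52 ± 0.386, and *Sox1*, at 3.18 ± 0.0362, did not overlap as replicate means but did as single runs. *Sox3* was at 2.75 ± 0.0149 and *Zic5* at 2.34 ± 0.0235 CPM per kb. *Sox11*, at 1.99 ± 0.263, and *Ncam1*, at 1.70 ± 0.190, overlapped in range, and *Pax6* was lowest at 0.986 ± 0.000183. Single runs of *Pax6* spanned 0.959 to 1.01 CPM per kb and those of *Sox3* 2.46 to 3.03, wider than the SD of replicate means shows. *Gbx2* stood above 96.0% and *Pax6* above 36.0% of the genes tested. Other neighbours in this order did not overlap, which rests on 2 replicates. A low level in bulk RNA can come from few cells with much RNA or from many with little, and fewer cells of a type and less RNA per cell cannot be told apart here.

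**Figure D1:**
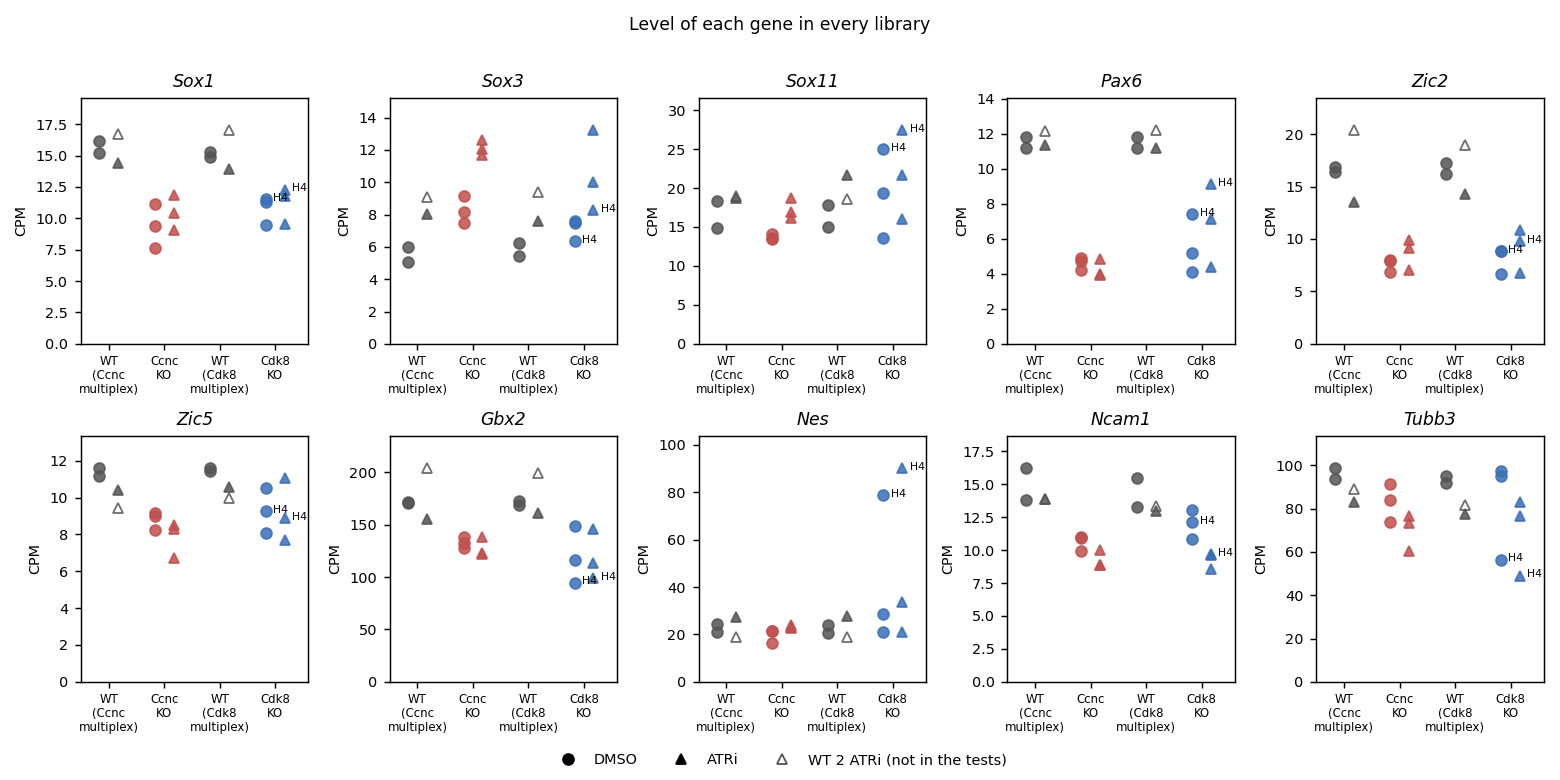
Level of each gene in CPM (vertical axes, from 0) in every library, by genotype and multiplex. Circles are DMSO and triangles ATRi libraries, open triangles are WT replicate 2 under ATRi, which the tests reported here left out unless named, and H4 labels 1 *Cdk8* KO clone. *Pax6* and *Zic2* lie below WT in every knockout library, and *Nes* reaches 90.2 CPM in clone H4.

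The first comparison asked how loss of Cyclin C or of CDK8 altered the mRNA of these genes, over both treatments. In *Ccnc* KO cells, 6 of the 10 genes fell (*Pax6*, *Zic2*, *Sox1*, *Ncam1*, *Zic5* and *Gbx2*), 1 rose (*Sox3*), and *Sox11*, *Nes* and *Tubb3* did not pass the test (edgeR quasi-likelihood test, Benjamini-Hochberg adjusted p under 0.05 over all genes tested). Of all 18577 genes tested, 5.28% were called lower and 7.01% higher. In *Cdk8* KO cells *Zic2* fell and the other 9 genes did not pass, where 2.03% of 18721 genes were called lower and 2.28% higher. The median log2 fold change of the 10 genes was -0.35 with loss of *Ccnc* and -0.31 with loss of *Cdk8*, against 0.00 and 0.01 over all genes tested. Of the 10 genes, 9 had a negative fold change in the former and 7 in the latter, against 49.3% and 48.3% of all genes. Both comparisons rest on the same WT libraries, so their values are given side by side and are not independent of each other. The 10 genes were chosen with earlier results of these data known, so their contrast with all genes is not independent evidence.

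*Pax6*, a paired-box factor of the forebrain, eye and radial glia, showed the largest fall. In the *Ccnc* multiplex its level was 11.2 and 11.8 CPM in the WT DMSO libraries and 11.3 CPM in WT 1 under ATRi, against 3.96 to 4.89 CPM (median 4.49) over the 6 *Ccnc* KO libraries. Every knockout library lay below every WT library. The log2 fold change was -1.35 ± 0.0990 (SE, adjusted p = 1.44e-06, edgeR), a level of 0.392 times WT. *Pax6* was the 1 gene of the set that fell by more than 2-fold, as 0.318% of all genes did (0 genes of the set and 0.144% of all in *Cdk8* KO cells). Without WT 1, *Zic2* also passed 2-fold. In the *Cdk8* multiplex WT was at 11.8 and 11.2 CPM in DMSO and 11.2 CPM under ATRi. B9 was at 4.12 and 4.42 CPM (DMSO and ATRi), C8 at 5.19 and 7.16 and H4 at 7.43 and 9.13, all again below WT. The log2 fold change, -0.92 ± 0.231, had an adjusted p of 0.0547 (edgeR) and so just missed the threshold. The spread between the 3 *Cdk8* KO clones was wider than that between the *Ccnc* KO clones.

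The *Pax6* gene lies at chr2:105668900-105697364 on the plus strand (GRCm38, GENCODE M21). RefSeq promoter windows were at hand for 7 of the 10 genes, all but *Sox3*, *Zic2* and *Ncam1*. There were 8 windows in all, since *Pax6* has 2, the second of them inside the gene. Counts per gene do not tell the 2 starts of *Pax6* apart. The bases before the start that lie in no annotated exon are shown for 4 genes, *Pax6* and *Zic5*, which fell in *Ccnc* KO cells, and *Nes* and *Sox11*, which did not pass there and were highest in clone H4. They are written 5′ to 3′ on the strand of the gene, with matches in capitals to the cAMP response element TGACGTCA, the CCAAT box CCAAT and the GC box GGGCGG on either strand. The windows are chr2:105668646-105668895 (plus strand) for *Pax6*, chr14:122465678-122465908 (minus) for *Zic5*, chr3:87970843-87971077 (plus) for *Nes* and chr12:27342719-27342968 (minus), all of GRCm38.p6, for *Sox11*.
Pax6: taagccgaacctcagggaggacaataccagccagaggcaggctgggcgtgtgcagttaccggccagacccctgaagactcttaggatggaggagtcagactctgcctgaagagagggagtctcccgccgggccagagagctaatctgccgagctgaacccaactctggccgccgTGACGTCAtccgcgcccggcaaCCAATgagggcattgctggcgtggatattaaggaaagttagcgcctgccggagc
Zic5: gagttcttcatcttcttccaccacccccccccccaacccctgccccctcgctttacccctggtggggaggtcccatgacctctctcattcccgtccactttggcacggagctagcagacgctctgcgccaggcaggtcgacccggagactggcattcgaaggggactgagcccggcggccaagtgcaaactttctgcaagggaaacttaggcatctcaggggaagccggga
Nes: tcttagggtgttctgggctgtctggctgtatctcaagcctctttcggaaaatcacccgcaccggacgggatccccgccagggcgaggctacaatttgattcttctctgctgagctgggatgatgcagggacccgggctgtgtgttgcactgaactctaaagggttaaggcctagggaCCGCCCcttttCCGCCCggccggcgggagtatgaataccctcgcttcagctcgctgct
Sox11: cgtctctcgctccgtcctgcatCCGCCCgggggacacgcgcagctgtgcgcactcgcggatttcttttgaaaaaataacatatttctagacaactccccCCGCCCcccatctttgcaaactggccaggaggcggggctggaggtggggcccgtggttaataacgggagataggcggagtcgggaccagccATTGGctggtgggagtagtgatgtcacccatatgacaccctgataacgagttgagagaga
The *Pax6* window held TGACGTCA from 76 bases before the start and CCAAT from 54 bases before it. Over all 32851 windows of the same 250 bases before a start, 1.55% held TGACGTCA, 33.8% CCAAT and 32.7% GGGCGG. The *Nes* window held 2 copies of GGGCGG and the *Sox11* window 2 copies and 1 CCAAT, each on the strand opposite to the gene. Of the 8 windows of the set, 1 held TGACGTCA, 4 CCAAT and 5 GGGCGG. A match describes the letters alone. No 2 matches overlapped. The letters ATGCAAAT (octamer, in 1.6% of all windows) and TATAAA (12.4%) were in none of the 8 windows of the set on either strand, and ACAATG (SOX, 10.7%) was in 1, that of *Tubb3*.

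*Zic2* and *Zic5* encode zinc finger factors of the neural plate and lie next to each other on chromosome 14, at chr14:122475435-122479852 (plus strand) and chr14:122456795-122465677 (minus strand). *Zic2* was at 16.3, 16.8 and 13.5 CPM in WT (WT 1 and WT 2 in DMSO, WT 1 under ATRi), against 6.85 to 9.94 CPM (median 7.94) in *Ccnc* KO libraries. In the *Cdk8* multiplex the WT values were 16.2, 17.2 and 14.3 CPM and the knockout libraries had 6.63 to 10.8 CPM (median 8.83). The groups did not overlap in either multiplex. The log2 fold changes were -0.93 ± 0.121 in *Ccnc* KO (adjusted p = 0.000184) and -0.90 ± 0.162 in *Cdk8* KO cells (adjusted p = 0.0162, edgeR), which are levels of 0.524 and 0.537 times WT. *Zic5* moved less. It was at 11.6, 11.2 and 10.4 CPM in WT and 6.74 to 9.18 CPM in *Ccnc* KO libraries, again without overlap, with a log2 fold change of -0.38 ± 0.0949 (adjusted p = 0.0170). In *Cdk8* KO libraries *Zic5* was at 7.72 to 11.0 CPM and overlapped with WT at 10.6 to 11.6 CPM (log2 fold change -0.27 ± 0.127, adjusted p = 0.259, edgeR).

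The SOX genes split. *Sox1* (chr8:12395295-12400126, plus strand) was at 16.1, 15.2 and 14.4 CPM in WT and 7.62 to 11.8 CPM (median 9.91) in *Ccnc* KO libraries, without overlap. Its log2 fold change was -0.62 ± 0.118 (adjusted p = 0.00294). Among the DMSO libraries, D1 was at 0.486, G2 at 0.600 and H5 at 0.708 times the WT mean. In the *Cdk8* multiplex *Sox1* was at 14.9, 15.3 and 14.0 CPM in WT and 9.49 to 12.3 CPM in knockout libraries, again without overlap, and its log2 fold change of -0.42 ± 0.105 just missed the threshold (adjusted p = 0.0536, edgeR). *Sox3* (chrX:60891366-60893430, minus strand), of the same subfamily, went the other way. It was at 5.08 and 6.01 CPM in WT under DMSO and 8.01 CPM in WT 1 under ATRi, against 7.48 to 9.13 CPM under DMSO and 11.7 to 12.6 CPM under ATRi in *Ccnc* KO libraries. Within each treatment every *Ccnc* KO library tested lay above WT, with a log2 fold change of 0.59 ± 0.0993 (adjusted p = 0.00131). In *Cdk8* KO libraries it was at 6.34 to 7.58 CPM under DMSO and 8.27 to 13.2 CPM under ATRi, against 5.41 to 6.25 and 7.61 CPM in the WT libraries tested, and 9.41 CPM in WT 2 under ATRi (log2 fold change 0.36 ± 0.153, adjusted p = 0.214, edgeR). *Sox11* (chr12:27334264-27342574, minus strand), which acts later, in differentiating neurons, was at 14.9 to 18.7 CPM in WT and 13.5 to 18.7 CPM in *Ccnc* KO libraries, with overlapping groups (-0.21 ± 0.0879, adjusted p = 0.130). In *Cdk8* KO libraries it spanned 13.6 CPM in B9 to 27.5 CPM in H4 (0.14 ± 0.201, adjusted p = 0.732, edgeR).

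*Gbx2* (chr1:89927956-89931179, minus strand), which also serves the self-renewal of mESCs, was at 171, 171 and 156 CPM in WT and 122 to 138 CPM (median 130.2) in *Ccnc* KO libraries. The groups did not overlap, and the log2 fold change was -0.33 ± 0.0553 (adjusted p = 0.00130). In the *Cdk8* multiplex WT was at 173, 169 and 161 CPM, B9 at 149 and 146 CPM (DMSO and ATRi), C8 at 117 and 113 CPM and H4 at 94.7 and 98.7 CPM. All 6 lay below WT, but the clones differed from each other, and the log2 fold change of -0.48 ± 0.142 did not pass (adjusted p = 0.0882, edgeR). A non-coding transcript on the opposite strand, *D130058E05Rik*, shares 946 bp with the exons of *Gbx2*, which is 43.5% of them, and the counts were made by strand.

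Among the markers, *Ncam1* (chr9:49502136-49798925, minus strand), a neural cell adhesion molecule, was at 16.2, 13.8 and 13.8 CPM in WT and 8.85 to 11.0 CPM in *Ccnc* KO libraries, without overlap (-0.53 ± 0.0885, adjusted p = 0.00127). In *Cdk8* KO libraries it was at 8.57 to 13.1 CPM against 12.9 to 15.5 CPM in WT (-0.34 ± 0.0980, adjusted p = 0.0804). *Nes* (chr3:87971078-87980451, plus strand), which encodes the intermediate filament nestin of neural progenitors, was at 21.1 to 27.2 CPM in WT and 16.4 to 23.8 CPM in *Ccnc* KO libraries (-0.21 ± 0.0904, adjusted p = 0.153). *Tubb3* (chr8:123411424-123422015, plus strand) was at 83.1 to 98.8 CPM in WT and 60.4 to 91.2 CPM in *Ccnc* KO libraries (-0.22 ± 0.0791, adjusted p = 0.0843), and at -0.17 ± 0.189 in *Cdk8* KO cells (adjusted p = 0.660, edgeR). For both genes the groups overlapped.

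**Figure D2:**
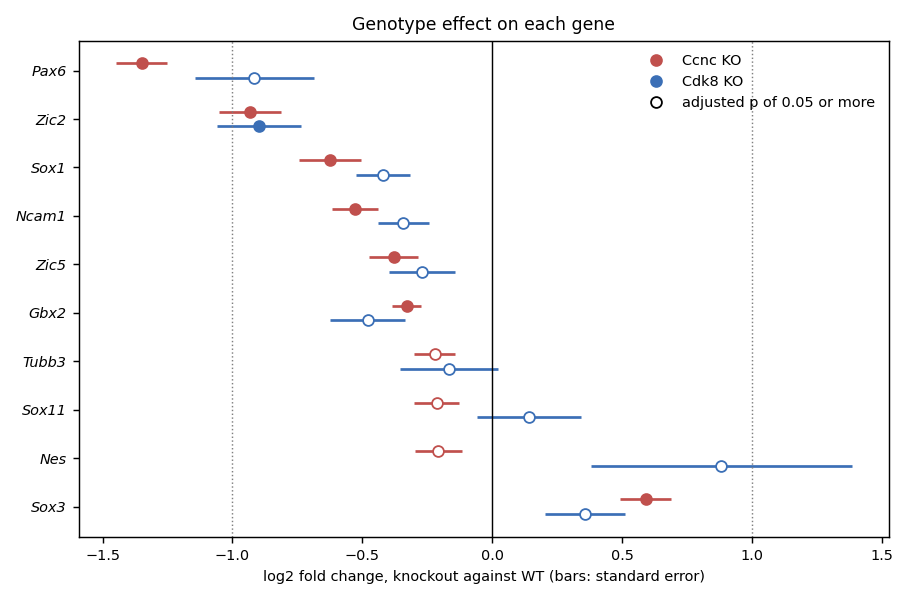
Log2 fold change of each gene against WT (horizontal axis, bars show the standard error) in *Ccnc* KO (red) and *Cdk8* KO cells (blue). Filled points have an adjusted p under 0.05 and dotted lines mark 2-fold. *Pax6* is lowest at -1.35 in *Ccnc* KO cells, and *Sox3* is at 0.59 there and at 0.36 without *Cdk8*, where it was not called.

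Counted by libraries, 6 genes of the set had every *Ccnc* KO library below every WT library tested, where 6.92% of all genes did, and 4 (*Pax6*, *Zic2*, *Sox1* and *Gbx2*) had every *Cdk8* KO library below WT, where 6.07% of all genes did. Both counts were the same with WT 2 under ATRi added, and 0 genes of the set lay wholly above WT, as 7.53% and 6.59% of all genes did. These counts pool DMSO and ATRi libraries. *Sox3*, which was higher under ATRi, lay above WT in *Ccnc* KO cells within each treatment but not when treatments were pooled. WT replicate 1 bears on the *Ccnc* calls. Without it WT was a single DMSO library, and *Pax6* (-1.35) and *Zic2* (-1.14) alone were called (edgeR). *Sox1* (-0.69) and *Gbx2* (-0.36) kept changes about as large and lost the call. *Ncam1* (-0.38, against -0.53 with WT 1), *Sox3* (0.46, against 0.59) and *Zic5* (-0.34, against -0.38) had smaller changes and also lost it. With DMSO libraries alone *Pax6*, *Zic2*, *Sox1* and *Gbx2* were called, and *Sox3* (0.59, adjusted p = 0.0654), *Ncam1* (-0.49, 0.0599) and *Zic5* (-0.36, 0.147) were not. In *Cdk8* KO cells the call of *Zic2* was lost without WT 1 (-1.11, adjusted p = 0.356), without WT 2 (-0.83, 0.0736) and with DMSO libraries alone (-1.06, 0.112), which called 0 of the 10 genes (edgeR, with 4 at an unadjusted p under 0.05). The clone as a block, RLE size factors and leaving out C8 each called 1. DESeq2 called 5 (*Zic2*, *Pax6*, *Sox1*, *Gbx2* and *Ncam1*), and edgeR with WT 2 under ATRi included called the same 5. The share of all genes called was not taken for these alternative fits or for those that leave out a clone. Their counts therefore cannot be set against a background.

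Clone H4 stood apart from the other *Cdk8* KO clones. *Nes* was at 78.9 and 90.2 CPM in H4 (DMSO and ATRi), against 21.2 and 20.96 in B9, 28.7 and 33.5 in C8 and 20.6 to 27.8 CPM in the WT libraries tested. Under DMSO that is 3.53 times the WT mean in H4, 0.946 times in B9 and 1.28 times in C8. *Tubb3* was lowest in H4, at 56.5 and 49.1 CPM, where B9 and C8 had 76.5 to 97.6 CPM. *Sox11* was highest in H4, at 25.0 and 27.5 CPM, *Gbx2* was lowest there and *Pax6* least lowered. Over the 3 clones the log2 fold change of *Nes* was 0.88 ± 0.502 (adjusted p = 0.347, edgeR), and it was 0.076 ± 0.157 without H4. Without H4, *Pax6* (-1.16, adjusted p = 0.00392), *Sox1* (-0.48, 0.0242) and *Zic2* (-0.95, 0.00995) were called in *Cdk8* KO cells, and without B9 *Zic2* (-0.75, 0.00983), *Pax6* (-0.71, 0.0345) and *Gbx2* (-0.66, 0.00477). Markers of the trophectoderm and of ESCs also moved with H4. The summed level of the 10 ESC markers was lowest there, at 2765 and 2841 CPM against 3276 to 3671 CPM in B9 and C8. The summed level of 8 trophectoderm markers was 298 and 313 CPM in H4 and 58.4 to 98.1 CPM in B9 and C8. It was 55.4 to 67.1 CPM in the WT libraries tested and 89.4 CPM in WT 2 under ATRi. The part of these markers in the values of H4 was not tested.

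**Figure D3:**
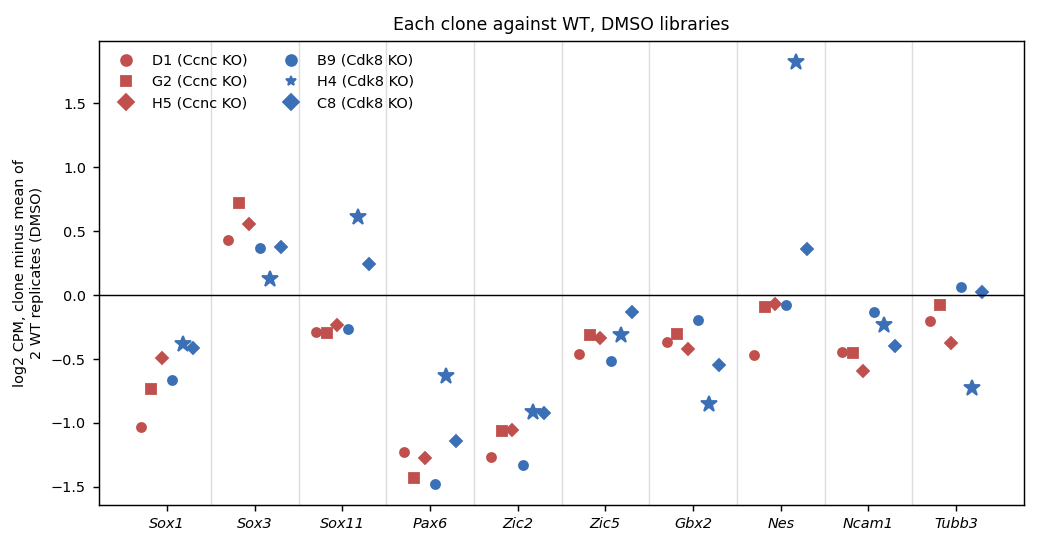
Log2 CPM of each clone minus the mean of the 2 WT replicates, DMSO libraries (vertical axis), for the 3 *Ccnc* KO (red) and 3 *Cdk8* KO clones (blue). *Zic2* and *Pax6* are below WT in all 6 clones, and clone H4 (star) is at 3.53 times the WT mean for *Nes*.

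A direct comparison of the knockouts, with the multiplex as a term and the 3 WT libraries entering once per multiplex (18 libraries, 15 of them distinct), called 0 of the 10 genes (edgeR, where 0.00545% of 18349 genes were called). At an unadjusted p under 0.05 there was 1, *Nes*, at -1.09 ± 0.513 (*Ccnc* KO minus *Cdk8* KO, adjusted p = 0.998), and 523 genes in all. DESeq2 also called 0. For *Pax6* the difference was -0.49 ± 0.262 and for *Zic2* -0.041 ± 0.208 on the log2 scale. The 7 calls in *Ccnc* KO and the single call in *Cdk8* KO cells therefore do not show that the knockouts differ.

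Other genes of the neural path were examined on 2 lists, 33 early neuroectoderm and neural plate factors and 30 proneural factors and neuronal or progenitor markers. Of these 63 genes, 48 had enough counts to be tested in *Ccnc* KO cells, where 9 fell (18.8% of those tested, against 5.28% of all genes), 7 rose (14.6%, against 7.01%) and 32 did not pass. For *Cdk8* KO cells 50 were tested, of which 6 fell (12%, against 2.03% of all genes), 1 rose (2%, against 2.28%) and 43 did not pass. The median log2 fold change of the genes tested was -0.10 without *Ccnc* and 0.054 without *Cdk8*, against 0.00 and 0.01 over all genes. Taken by list, it was -0.16 for the early factors and 0.043 for the later genes without *Ccnc*, and -0.23 and 0.23 without *Cdk8*. The 13 genes tested in neither, such as *Neurog2*, *Dcx* and *Olig2*, had at most 13 counts in any library. In *Ccnc* KO cells the 16 calls became 2 without WT 1 and 7 with DMSO libraries alone. Without *Cdk8* the 7 calls became 0 without WT 1, 4 without WT 2, 3 without C8 and 14 without B9. They became 2 with the clone as a block, *Gad1* and *Stmn2*, and 0 with DMSO libraries alone (edgeR).

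Among early factors, *Hesx1*, a homeobox gene of the anterior neural plate, rose. It was at 0.00 to 0.0646 CPM in the WT libraries of the *Ccnc* multiplex, at most 3 counts in a library, and at 0.281 to 0.593 CPM in *Ccnc* KO libraries (adjusted p = 0.00135). In the *Cdk8* multiplex it was at 0.0608 to 0.126 CPM in WT and 0.243 to 0.605 CPM in knockout libraries (2.11 ± 0.476, adjusted p = 0.0376, edgeR), a call lost with the clone as a block (adjusted p = 0.167). *Zfp521*, a zinc finger gene that promotes the neural fate, rose in *Ccnc* KO cells from 0.452 to 0.647 CPM in WT to 1.09 to 1.32 CPM (1.12 ± 0.209, adjusted p = 0.00273). *Meis1*, a homeobox cofactor gene, fell there from 2.61 to 3.00 CPM in WT to 0.864 to 1.51 CPM (-1.29 ± 0.175, adjusted p = 0.000270, edgeR). Without *Cdk8*, *Zfp521* (1.21, adjusted p = 0.0560) and *Meis1* (-1.02, 0.0697) had changes of the same sign that did not pass (edgeR). In *Cdk8* KO cells *Hes5*, a Notch target, fell (-1.61 ± 0.374, adjusted p = 0.0416, edgeR). It was at 0.274 to 0.660 CPM in WT, at most 32 counts in a library, and at 0.0830 to 0.261 CPM in knockout libraries. There *Sall3*, a zinc finger gene (-0.43 ± 0.0838, adjusted p = 0.0220), and *Sox2*, which is also on the ESC list (-0.23 ± 0.0449, adjusted p = 0.0230, edgeR), fell too. With the clone as a block these calls were lost, for *Hes5* at -1.30 (adjusted p = 0.273), for *Sall3* at -0.41 (0.158) and for *Sox2* at -0.23 (0.0604). *Sall3* fell in *Ccnc* KO cells too (-0.58, adjusted p = 0.00291), while *Hes5* (-1.05, adjusted p = 0.0873) and *Sox2* (-0.15, adjusted p = 0.0679) did not pass there (edgeR).

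Among later markers, *Gad1*, which encodes the enzyme that makes the neurotransmitter GABA, fell in both knockouts. It was at 1.10 to 1.79 CPM in WT and 0.169 to 0.396 CPM in *Ccnc* KO libraries (-2.42 ± 0.257, adjusted p = 3.46e-05), and at 1.38 to 1.73 CPM in WT and 0.330 to 0.750 CPM in *Cdk8* KO libraries (-1.69 ± 0.239, adjusted p = 0.00609, edgeR). *Msi1*, an RNA-binding protein gene of neural progenitors, fell by 0.79 in *Ccnc* KO (adjusted p = 0.000204) and by 0.73 in *Cdk8* KO cells (adjusted p = 0.0170) on the log2 scale, the latter call lost with the clone as a block (-0.68, adjusted p = 0.0952). *Nrcam*, a neuronal adhesion gene (1.20 ± 0.278, adjusted p = 0.0108) and the neurofilament gene *Nefm* (0.89 ± 0.210, adjusted p = 0.0117, edgeR) rose in *Ccnc* KO cells. Both were low in WT, *Nrcam* at 0.323 to 0.334 CPM (at most 16 counts) and *Nefm* at 0.565 to 0.904 CPM (at most 42 counts). Without *Cdk8*, *Nrcam* (0.81, adjusted p = 0.142) and *Nefm* (1.03, 0.0583) had changes of the same sign that did not pass (edgeR). *Stmn2*, a microtubule regulator of neurons, fell in *Cdk8* KO cells from 138 to 175 CPM in WT to 77.9 to 112 CPM (-0.72 ± 0.109, adjusted p = 0.00768), and fell in *Ccnc* KO cells by 0.43 on the log2 scale (adjusted p = 0.0345, edgeR). With the clone as a block *Gad1* (-1.75, adjusted p = 0.0174) and *Stmn2* (-0.71, 0.0130) were still called in *Cdk8* KO cells. With DMSO libraries alone *Nrcam* (adjusted p = 0.0837) and *Nefm* (0.200) lost their calls in *Ccnc* KO cells.

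**Figure D4:**
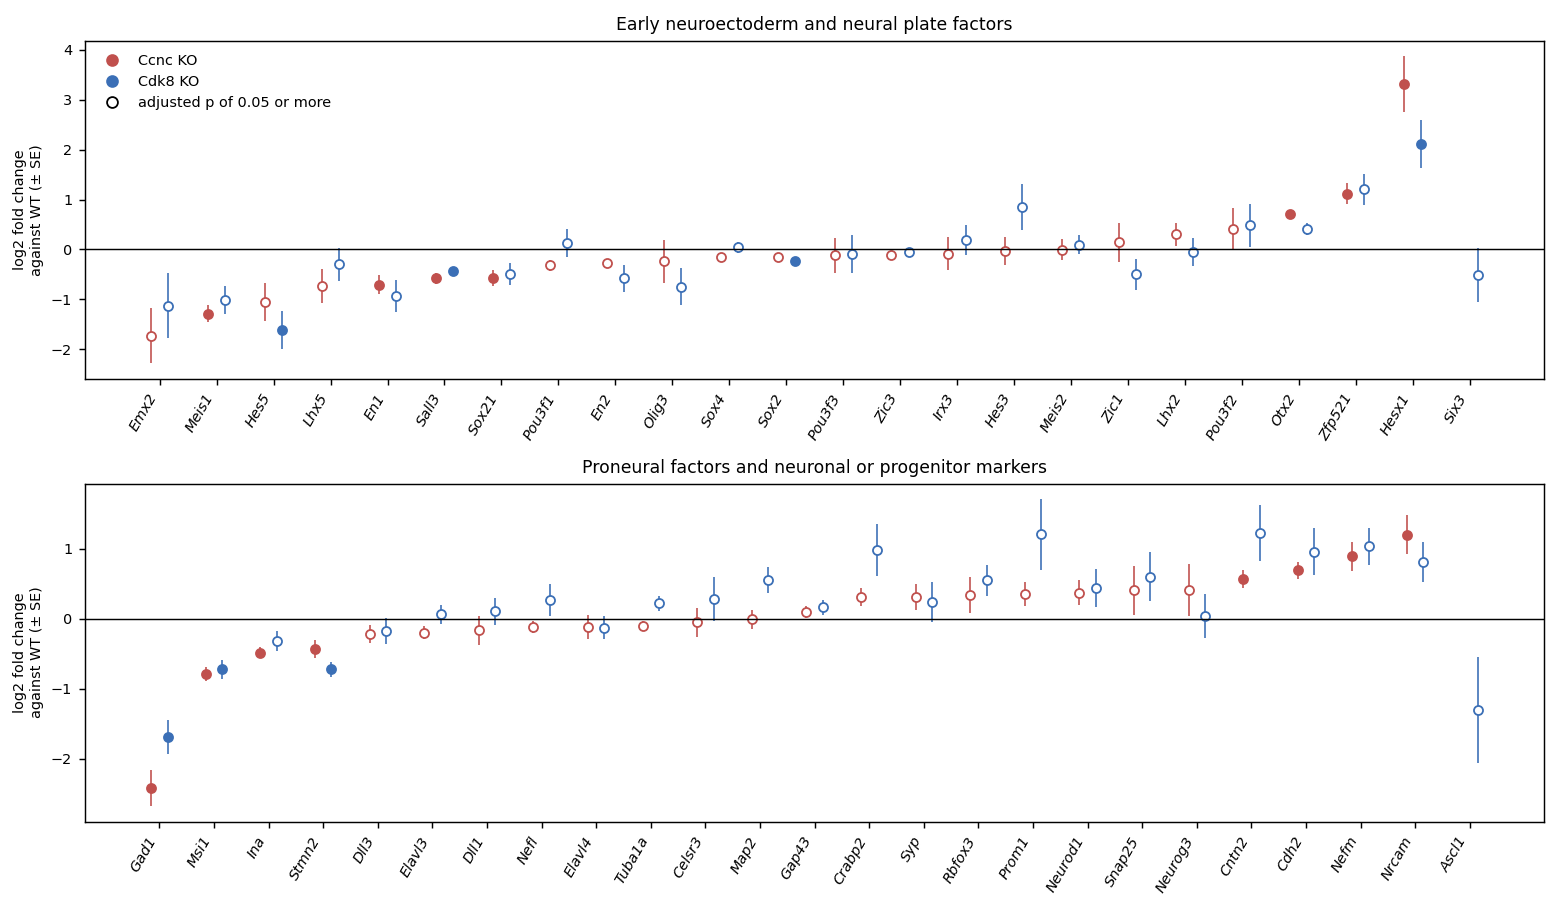
Log2 fold change against WT with its standard error (vertical axes) of the tested genes of both lists, 1 of them not drawn, in *Ccnc* KO (red) and *Cdk8* KO cells (blue), ordered by the value in *Ccnc* KO cells, with genes tested only in *Cdk8* KO cells last. Filled points have an adjusted p under 0.05. Genes lie on both sides of 0, from -2.42 for *Gad1* to 3.32 for *Hesx1* in *Ccnc* KO cells, where *Hesx1* had at most 3 counts in a WT library.

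Markers of another lineage moved with genotype. The WT ranges that follow are those of the WT libraries tested. Of 12 primitive endoderm markers, 10 were called higher without *Ccnc* and 12 without *Cdk8*, where 7.01% and 2.28% of all genes were, and their summed level was 371 to 416 CPM in WT and 696 to 896 CPM in *Ccnc* KO libraries, and 376 to 415 CPM in WT and 864 to 1245 CPM in *Cdk8* KO libraries. All 12 were above 3 counts in each group. Of 10 ESC markers, 4 were called lower and 1 higher in *Ccnc* KO, and 2 lower in *Cdk8* KO cells, where 5.28% and 2.03% of all genes were called lower. Of 8 trophectoderm markers, 2 of which (*Eomes* and *Hand1*) are also on the mesoderm list, 4 were called higher in *Ccnc* KO cells, with summed levels of 56.5 to 70.0 CPM in WT and 71.7 to 104 CPM in the knockout, and 1 of the 7 tested in *Cdk8* KO cells. Markers of the neural crest and glia, 7 genes, summed to 9.32 to 11.9 CPM in WT and 8.64 to 12.2 CPM in *Ccnc* KO libraries, and to 8.94 to 11.5 and 9.40 to 13.4 CPM in the *Cdk8* multiplex, and 0 of the 5 tested were called by edgeR in either knockout. *Foxd3*, of the neural crest, had at most 3 counts in each library of every group. Summed mesoderm markers (9 genes) were at 10.9 to 12.3 CPM in WT and 12.5 to 15.8 CPM in *Ccnc* KO, and at 11.3 to 12.5 and 11.5 to 16.4 CPM in the *Cdk8* multiplex, with *Msgn1* at 3 counts or fewer throughout. Summed fibroblast markers (7 genes) were at 6.51 to 6.93 and 8.27 to 13.0 CPM in the *Ccnc* multiplex and at 5.78 to 7.24 and 8.88 to 25.5 CPM in the *Cdk8* multiplex, highest in H4. WT 2 under ATRi, which the tests left out, was at 469 and 455 CPM for primitive endoderm markers (*Ccnc* and *Cdk8* multiplex). It was at 88.2 and 89.4 CPM for trophectoderm, 16.2 and 16.5 for mesoderm and 7.22 and 7.35 for fibroblast markers. With it added, WT overlapped with *Ccnc* KO cells for trophectoderm markers and reached above every knockout library for mesoderm markers. The part of these lineages in the changes of the neuroectoderm genes was not tested.

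The next comparison asked what 4 h of ATRi did to the set. *Sox3* was higher under ATRi in all 6 clones and both WT replicates. In the *Ccnc* multiplex it went from 5.08 to 8.01 CPM in WT 1, from 6.01 to 9.08 in WT 2, from 7.48 to 12.1 in D1, from 9.13 to 11.7 in G2 and from 8.14 to 12.6 in H5. In *Cdk8* KO clones it went from 7.50 to 13.2 CPM in B9, from 6.34 to 8.27 in H4 and from 7.58 to 10.02 in C8. The WT libraries sequenced again with them went from 6.25 to 7.61 CPM in WT 1 and from 5.41 to 9.41 in WT 2. *Sox3* was the single gene of the set called in the *Ccnc* multiplex (0.55 ± 0.0911, adjusted p = 0.0123), where 1.11% of genes were called. In the *Cdk8* multiplex 0 of the 10 were called by edgeR, where 0.0855% of genes were, with *Sox3* at 0.51 ± 0.141 (adjusted p = 0.218). At an unadjusted p under 0.05 there were 2 of the 10 and 2146 genes in all, and DESeq2 called 1, *Sox3* (adjusted p = 0.0381). The call in the *Ccnc* multiplex was lost without WT 1 (0.56, adjusted p = 0.112), G2 (0.61, 0.0573) or H5 (0.52, 0.0853), with changes close to that over all libraries.

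Since both libraries of a clone come from 1 cell line, a fit with the clone as a block pairs them. With it 2 of the 10 genes were called in the *Ccnc* multiplex, where 2.43% of genes were, and 5 in the *Cdk8* multiplex, where 11.3% of genes were. *Sox3* rose by 0.58 ± 0.0895 (adjusted p = 0.00925) and 0.49 ± 0.0884 (adjusted p = 0.00327) on the log2 scale. *Tubb3* fell in both multiplexes, at -0.25 ± 0.0559 (adjusted p = 0.0397) and -0.26 ± 0.0350 (adjusted p = 0.000512), and it was lower under ATRi in all 8 pairs. *Ncam1* (-0.34 ± 0.0746, adjusted p = 0.00952), *Sox11* (0.20 ± 0.0518, adjusted p = 0.0215) and *Nes* (0.16 ± 0.0471, adjusted p = 0.0457, edgeR) were called in the *Cdk8* multiplex, and whether the multiplexes differ was not tested. *Sox11* was higher under ATRi in 8 of 8 pairs, by 0.028 to 0.40 on the log2 scale, and *Ncam1* lower in 7 of 8. *Pax6*, *Zic2*, *Sox1*, *Zic5* and *Gbx2* were not called with the block in either multiplex. These pairs include WT 2 under ATRi, which the fits left out. How many of all genes moved the same way in as many pairs was not counted, for *Sox3* as for the others.

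**Figure D5:**
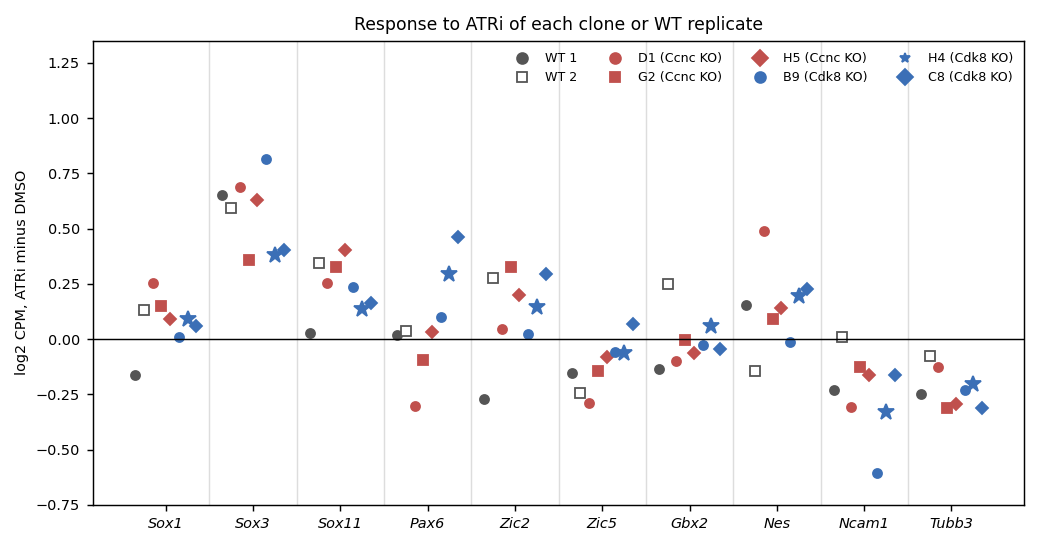
Log2 CPM under ATRi minus that under DMSO (vertical axis) for each clone and WT replicate, with WT values from the *Ccnc* multiplex and WT 2 as open squares. *Sox3* is above 0 in all 8 pairs, from 0.36 to 0.82, and *Tubb3* below 0 in all 8. In the *Cdk8* multiplex, not drawn for WT, *Sox3* was at 0.28 in WT 1 and 0.79 in WT 2.

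A test of whether the knockouts responded to ATRi otherwise than WT called 0 of the 10 genes in each multiplex and 0% of all genes (edgeR). At an unadjusted p under 0.05 there were 0 of the 10 in each, and 395 and 255 genes in all. DESeq2 called 0 of the 10. The largest term in the set was that of *Zic2*, 0.48 ± 0.229 in the *Ccnc* and 0.40 ± 0.335 in the *Cdk8* multiplex, where WT rested on 1 ATRi library. That library, WT 1, had *Zic2* at 13.5 CPM under ATRi and 16.3 CPM under DMSO, while WT 2 had 20.4 and 16.8 CPM.

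Across the 18 libraries, centred within each multiplex, *Sox1* and *Zic2* varied most alike (Pearson r = 0.941 of log2 CPM), followed by *Pax6* and *Zic2* (0.916) and *Sox1* and *Pax6* (0.888). *Sox11* and *Nes* went together at 0.843, and *Sox3* ran opposite to *Ncam1* at -0.871. The genes outside the set with the highest mean r over the 10 were *Gad1* (0.486), *Ntn1* (0.476), which encodes the axon guidance cue netrin, and *Atp6v1b2* (0.474), a subunit of the vacuolar proton pump, of 18130 genes searched. Each followed only part of the set, with r from -0.60 to 0.94 (*Gad1*), -0.65 to 0.92 (*Ntn1*) and -0.71 to 0.93 (*Atp6v1b2*) over its genes. These values describe the libraries, which share WT samples, clones and the genotype difference, and the ATRi difference was left in them. Those of *Sox11* and *Nes* include clone H4, where both genes were highest.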

How the data were processed

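The authors trimmed single-end, strand-specific poly(A) reads with Trimmomatic 0.38, aligned them with HISAT2 2.1.0 to GRCm38.p6 and counted them per gene with featureCounts 2.0.1 by strand, with an option that leaves out reads marked as duplicates (a marking step is not given in the sources used here). They deposited these counts per lane for 40 lane samples without normalization. They also deposited rlog-transformed values, on a log2 scale, which were not used here. All columns of the count tables were matched to a sample by name. Counts of the 2 lanes of a library were summed, giving 20 libraries.

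Genes were tested per multiplex on 9 libraries with edgeR 4.0.16 (R 4.3.3), using quasi-likelihood F tests, TMM factors and filterByExpr. Models held genotype and treatment for their main effects, then both with their interaction, while *Ccnc* KO was set against *Cdk8* KO on 18 libraries with multiplex and treatment as terms, where 3 WT libraries enter once per multiplex. Calls used a Benjamini-Hochberg adjusted p under 0.05 over all genes tested, and the study's 2-fold threshold where named. Standard errors were taken from the fold change and its F statistic. All 10 genes of the set passed the filter in every comparison. WT replicate 2 under ATRi was left out following the study's methods. CPM are counts per library total scaled by TMM, and log2 CPM used a prior count of 2. Depth limits the precision of genes with few counts.

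The study used DESeq2, run here as version 1.42.0 as an alternative. Further alternatives were RLE size factors, all genes with at least 1 count, WT 2 under ATRi included, DMSO libraries alone, each clone or replicate left out, and the clone as a block (in edgeR for ATRi, with limma 3.58.1 duplicateCorrelation for genotype). Both libraries of a clone come from 1 cell line, which pairs them. Across genes, the deviations of a clone's 2 libraries from their group means correlated at 0.177 (D1), 0.0205 (G2), 0.184 (H5), 0.554 (B9), 0.627 (H4) and 0.178 (C8). The main genotype fits take them as independent. WT libraries come from 2 biological replicates, so p-values rest on few cultures.

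The 10 genes and the other lists were chosen with earlier results of these data known, so that their counts are not independent evidence. Genes outside the set were named by rule: of the 2 neural lists, those called in a knockout, at most the 8 with the largest change in each, and the 3 genes with the highest mean correlation with the set. The values of 1 gene that this rule names are not reported here. Genes named in the text as examples of marker lists or of untested genes were chosen after their values were seen. Promoter windows are those of RefSeq on GRCm38.p6, cut to bases outside exons of GENCODE M21. The tests were tried on simulated counts drawn independently for each library, without a shared clone effect, which do not bear on the pairing of a clone's libraries.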

Additional observations from a re-analysis of the deposited data

How the results depend on the processing

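RLE size factors changed none of the counts below. Shares of all genes called were taken for the main fits and for the ATRi fits with the block, not for the other alternatives. In *Ccnc* KO cells the 7 calls in the set became 4 with DMSO libraries alone and 2 to 7 when a clone or WT replicate was left out. Calls past 2-fold there, 1 in all, became 2 with WT 2 under ATRi included or with DMSO alone, and 1 to 2 on leaving one out. The 16 calls on the wider neural lists became 7 with DMSO alone and 2 to 16 on leaving one out. In *Cdk8* KO cells the single call became 5 with DESeq2 or with WT 2 under ATRi included, 4 with all genes of at least 1 count, 0 with DMSO alone and 0 to 3 on leaving one out. Calls past 2-fold, 0 of the 10 by edgeR, were 0 to 1 on leaving one out. The 7 wider calls there became 13 with DESeq2, 12 with all genes, 11 with WT 2 under ATRi, 2 with the replicate block, 0 with DMSO alone and 0 to 14 on leaving one out.

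For ATRi, the 1 call in the *Ccnc* multiplex became 2 with DESeq2, with all genes or with the replicate block, and 0 to 1 on leaving one out. The 0 calls in the *Cdk8* multiplex became 1 with DESeq2 and 5 with the replicate block. The block moved no other count of the set by more than 1.5 times. For *Cdk8* KO cells *Sox11* and *Tubb3* changed sign without H4: over all samples left out, the log2 fold change of *Sox11* ran from -0.085 (without H4) to 0.35 and that of *Tubb3* from -0.31 to 0.042 (without H4). Among 326 recomputed fold changes of single genes, 288 kept their direction and side of the threshold, 14 lost a call and 22 gained one. The interaction could not be fitted without WT 1. The cause of these shifts was not tested.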
